A study of Mus musculus with 14 samples.

Results

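Brain region marker genes are genes whose expression in the mouse brain is concentrated in particular regions. The 10 examined here were Prkcd, Tcf7l2, Lef1 and Rgs16 for the thalamus, Drd2, Adora2a and Ppp1r1b for the striatum, and Prox1, Wfs1 and Neurod6 for the hippocampus and cortex. They were taken by symbol from the array's probe annotation, out of 16593 genes with a named probe. The genes were selected on their known brain region together with the diet differences of these same brain arrays, which were already known. Their diet values in brain are therefore a description without a test of their own. Of the 10 genes, 9 had a named probe, 15 probes in all, and 7 had a probe above background, in each case on all 6 brain arrays. No probe carried the name Adora2a in the annotation used here.

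Brain RNA was read on 6 Illumina BeadChip arrays (Sentrix Mouse-8 v2), 2 for each of 3 diets, on which a transcript is read as the brightness of beads with a matching probe. Male C57BL/6J mice entered the diets at an age of 13 months. One group ate the control diet freely, the calorie-restricted group (CR) received 70% of that amount, and the third ate control food containing 0.066% β-lapachone (βL), a quinone used by the enzyme NQO1 as a substrate. Whether replicate arrays stand for different mice is not given in the sources used here. A p-value is thus a measure of the scatter among these arrays alone, and that scatter could be technical. The tissue is labelled brain, and the series description gives it as cortex. The 8 muscle arrays of the series (2 control, 3 CR and 3 βL) served as a second tissue.

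The thalamus relays sensory and motor signals to the cortex, the striatum is the input station of the basal ganglia, and the hippocampus forms memories together with the cortex. Each holds neurons with their own set of transcription factors, receptors and signalling enzymes, so that a dissected sample carries the genes of whatever regions it contains. In bulk tissue, fewer cells of a type and less RNA per cell cannot be told apart.

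Median intensities of the brain arrays were 79.9 to 127 before normalization, 53.9% to 55.4% of the 25697 probes were above background on each (detection p under 0.05), and each array correlated with the others at 0.993 to 0.994 on average. The number of arrays limits the precision. Cortical genes were present as labelled: all 16 genes of a cortex list that were on the array were above background on all 6 arrays. So were 15 of 17 striatal genes, 11 of 16 hippocampal genes and 11 of 19 thalamic genes, some of which cortical neurons also express. Neurod6, a transcription factor of pyramidal neurons and expected in cortex, was not above background on any brain array. Its 1 probe had a detection p of 0.409 to 0.922, and log2 intensities between 4.44 and 4.63.

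The promoter sequences of Prkcd and Tcf7l2 are shown because these were the 2 members with the largest differences on the βL diet and their βL arrays lay above all others. Both are given 5′ to 3′ from the RefSeq promoter table (GRCm38.p6), as the part of the 250 bases before the most upstream start in the table that lies outside the annotated gene. For Prkcd, on the minus strand, these are 44 bases at chr14:30626415-30626458, and for Tcf7l2, on the plus strand, 237 bases at chr19:55741560-55741796. Capitals mark CAAAG, or CTTTG on the other strand, the short core recognised by TCF/LEF factors such as the product of Tcf7l2.
Prkcd: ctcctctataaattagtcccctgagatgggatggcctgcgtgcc
Tcf7l2: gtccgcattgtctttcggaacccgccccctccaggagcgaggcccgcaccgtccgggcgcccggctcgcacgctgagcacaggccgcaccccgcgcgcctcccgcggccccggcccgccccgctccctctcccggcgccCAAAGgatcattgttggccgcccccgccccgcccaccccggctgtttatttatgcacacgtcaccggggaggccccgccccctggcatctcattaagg
The longer TCF/LEF motif CTTTGAT, searched on both strands, overlaps the short core. It was in 0 of 14 promoter windows of the 8 members that have one in the table, against 3.21% of all 32851 windows of the same length. The short core was in 10 of the 14 windows, against 48.6% of all windows. Genes with several starts count more than once here, and some windows of Lef1 overlap, so no enrichment can be read from this. Among the most upstream windows, those of Prkcd, Tcf7l2, Lef1 and Drd2 held it. Those of Rgs16, Prox1, Wfs1 and Neurod6 did not. The whole Prkcd window held 2 such matches, both inside the annotated gene and so outside the stretch printed. A match is a description of the letters in this window only.

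Prkcd encodes protein kinase C delta, a signalling kinase abundant in thalamic relay neurons, and lies at chr14:30595353-30626414. Its log2 intensities were 7.05 and 7.17 on the control arrays, 7.21 and 7.31 on CR, and 8.47 and 8.53 on βL. Both βL arrays stood far above the other 4, and both CR arrays lay slightly above both control arrays. The difference from control was 1.39 on the log2 scale on βL (SE 0.09, 2.62-fold), and 0.15 on CR (SE 0.09). Between βL and CR it was 1.24 (SE 0.09, 2.36-fold).

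Prkcd was the only one of the 7 measured members whose difference passed limma at an adjusted p under 0.05, from βL to control and from βL to CR. Over all 9956 genes, 0.331% were called for βL against control (15 higher and 18 lower) and 0.281% for βL against CR (26 higher and 2 lower). For CR against control 0.231% of genes were called and 0 of the 7 members, none of them at an unadjusted p under 0.05 either. At that unadjusted level, 5 of 7 members lay under 0.05 for βL against control and 4 of 7 for βL against CR. Of all genes, 8.15% did so for CR against control, 8.73% for βL against control and 9.36% for βL against CR. The methods' t-test called 0, 0 and 2 of all genes for CR against control, βL against control and βL against CR after adjustment. With 1 control or βL array left out, the call of Prkcd for βL against control was lost while the size of the difference hardly moved. It was 1.32 without control replicate 1, 1.45 without control replicate 2, 1.43 without βL replicate 1 and 1.36 without βL replicate 2. For βL against CR, the call was lost without βL replicate 1 (1.28) and without βL replicate 2 (1.21).

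**Figure D1:**
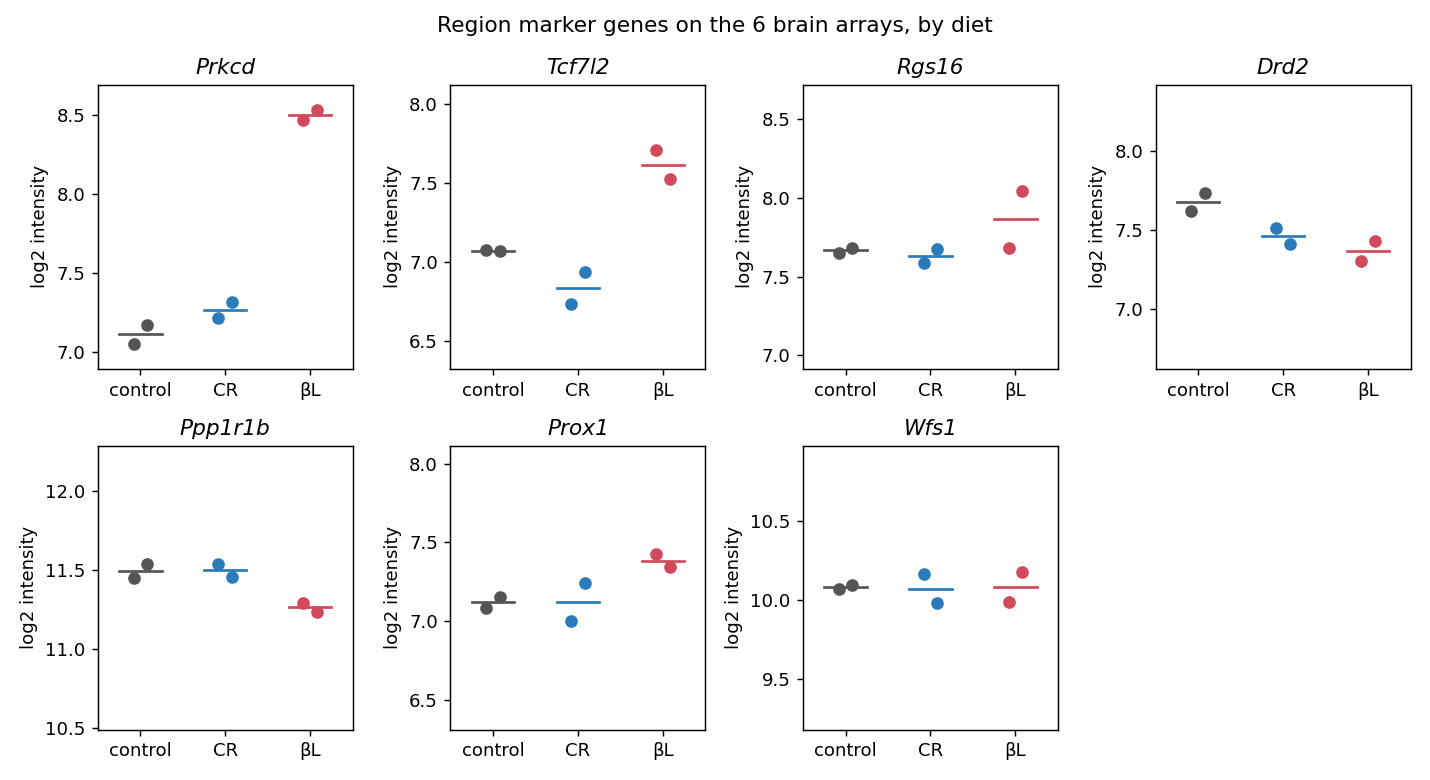
Log2 intensity (y axis, each panel spanning 1.8 log2 units) of the 7 measured region marker genes on the 6 brain arrays, by diet (x axis). Points are arrays and lines are means of 2 arrays; the βL arrays of Prkcd lie at 8.47 and 8.53, those of the other diets between 7.05 and 7.31.

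Tcf7l2 encodes a DNA-binding partner of β-catenin in Wnt signalling and marks thalamic neurons in the adult mouse brain. The gene lies at chr19:55741797-55933659, and its promoter stretch is printed above. Its brightest probe gave 7.08 and 7.07 on the control arrays, 6.74 and 6.93 on CR, and 7.71 and 7.53 on βL. CR lay below control and βL above it, with no overlap between any of the diets. The differences were 0.55 for βL against control (SE 0.11), -0.24 for CR against control (SE 0.11) and 0.78 for βL against CR (SE 0.11). None was called here, while for βL against CR 4 of 16 alternative settings called it. With the deposited normalized values the same differences were 0.35, -0.12 and 0.47, and without CR replicate 1 that of CR was -0.14. The gene has 2 dimmer probes. One was above background on 1 of 6 arrays only, with 4.90 and 4.86 on control, 4.92 and 4.76 on CR, and 5.08 and 5.27 on βL. Its βL arrays were also the highest. The remaining probe was not above background on any brain array.

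Lef1, a TCF/LEF factor of the same family found in thalamic neurons (chr3:131110297-131224357), was not above background on any brain array. Its 2 probes had detection p-values of 0.0589 to 0.480 over the 6 arrays, and no difference between diets can be read from them.

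Rgs16 (chr1:153740353-153745468) encodes a regulator that speeds the switching-off of G proteins. It gave 7.65 and 7.68 on the control arrays, 7.58 and 7.68 on CR, and 7.68 and 8.04 on βL. A single βL array, replicate 2, stood above all others, and the rest were alike. The difference between βL and control was 0.20 (SE 0.13), which became 0.01 without βL replicate 2 and 0.38 without βL replicate 1.

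Of the striatal members, Drd2 (chr9:49340360-49408177) encodes the D2 dopamine receptor of the indirect pathway neurons. It gave 7.62 and 7.74 on control, 7.51 and 7.41 on CR, and 7.30 and 7.43 on βL. Control arrays were the highest, and those of CR and βL overlapped. The differences from control were -0.22 on CR and -0.31 on βL (SE 0.10 each), neither of them called.

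Ppp1r1b (chr11:98348406-98357796) encodes DARPP-32, a phosphatase inhibitor that relays dopamine signals in medium spiny neurons. Its brightest probe gave 11.45 and 11.54 on control, 11.54 and 11.46 on CR, and 11.29 and 11.24 on βL. Both βL arrays were the lowest and the other diets overlapped. The difference was -0.23 against control and -0.24 against CR (SE 0.09 each), not called. The second probe gave 7.73 and 7.80 on control, 7.64 and 7.75 on CR, and 7.38 and 7.47 on βL, again lowest on βL. The third ran from 5.97 to 6.29, and its diets overlapped.

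Prox1 (chr1:190118035-190170827) encodes a homeobox factor of dentate granule neurons. It gave 7.09 and 7.15 on control, 7.0 and 7.24 on CR, and 7.43 and 7.34 on βL. Both βL arrays lay above the other 4. The difference of βL was 0.26 against control and 0.26 against CR (SE 0.11 each), not called, and that of CR was 0.00. Against CR it was 0.14 without CR replicate 1 and 0.39 without CR replicate 2, and against control 0.16 with the deposited normalized values. A dimmer probe, above background on 3 of 6 arrays, gave 4.72 and 5.07 on control, 4.70 and 5.28 on CR, and 5.49 and 5.25 on βL. Its CR and βL arrays overlapped.

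Wfs1 (chr5:36966104-36988982) encodes an endoplasmic reticulum protein enriched in hippocampal CA1 and upper cortical layers. It gave 10.07 and 10.10 on control, 10.17 and 9.98 on CR, and 9.99 and 10.18 on βL. All diets overlapped, and the differences were -0.01, 0.00 and 0.01 (SE 0.11 each). The control values lay between those of either other diet.

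**Figure D2:**
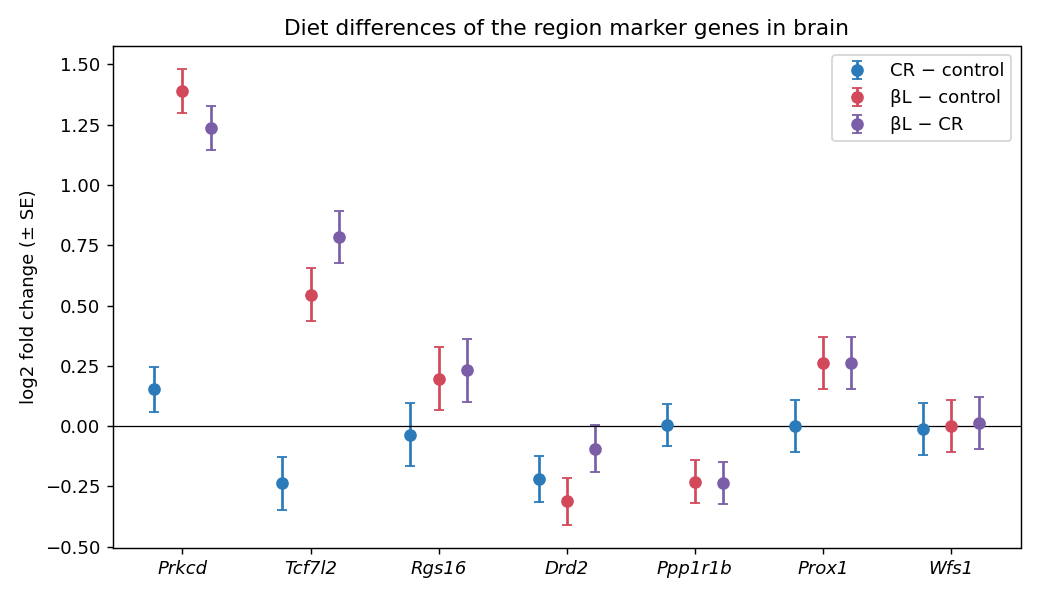
Log2 fold change (y axis) of the 7 measured members (x axis) for CR minus control, βL minus control and βL minus CR in brain, 2 arrays per diet. Bars are standard errors of limma's fit; Prkcd stands at 1.39 and 1.24 in the βL contrasts, all other values lie between -0.31 and 0.78.

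Counted over the 7 members, the arrays of CR and control did not overlap for 3 (1 higher and 2 lower on CR), against 37.8% of all genes (19.1% higher and 18.6% lower). Those of βL and control did not overlap for 5 (Prkcd, Tcf7l2 and Prox1 higher, Drd2 and Ppp1r1b lower), against 40.7% of all genes (19.8% higher and 20.9% lower). Those of βL and CR did not overlap for 5 (4 higher and 1 lower), against 40.2% of all genes (18.9% higher and 21.3% lower). These counts rest on the contrasts the genes were picked with, and the last 2 comparisons share the βL arrays. The members' median differences were -0.01, 0.20 and 0.23, where the medians over all genes were 0.00, -0.00 and -0.01.

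Across the 6 arrays the members fell into a pattern that can only be described, since all points share the 3 diets. Prkcd correlated with Tcf7l2 at 0.90 and with Prox1 at 0.87. It ran opposite to Ppp1r1b, at -0.93, and to Drd2, at -0.71. Wfs1 was related to Prkcd at 0.03 only.

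A wider list of 20 thalamic genes, without the members, was read for the direction seen in Prkcd and Tcf7l2. It was chosen with earlier results of these data known and was read on the same βL arrays. Its values are therefore a description and no independent support. Of 13 measured genes, 12 lay above 0 for βL against control, with a median of 0.32, and 10 had both βL arrays above both control arrays while 1 had them below, where 19.8% and 20.9% of all genes did. None was called by limma, although 9 of 13 had an unadjusted p under 0.05, against 8.73% of all genes. Shox2, a homeobox factor of thalamic neurons, gave 4.96 and 5.24 on control, 5.19 and 5.06 on CR, and 5.82 and 6.04 on βL. Zfhx3, a zinc finger homeobox factor, gave 7.57 and 7.66 on control, 7.82 and 7.98 on CR, and 8.32 and 8.17 on βL. Their differences from control were 0.83 (SE 0.13) and 0.63 (SE 0.10). Both βL arrays were the highest for either gene. Without βL replicate 1 or without βL replicate 2, 12 genes of the list were measured. The gene lost, by its values Shox2, was kept as above background through the βL arrays alone. Its place among the genes above 0 was favoured by that selection. For Zic1, the difference of βL was 0.52 from control and 0.47 from CR (SE 0.09 each). Nefm, the neurofilament medium chain, was the only gene of the list below 0, at -0.08. For CR against control the list's median was 0.06 and 1 gene, Zfhx3 at 0.29 (SE 0.10), had an unadjusted p under 0.05. Cacna1g, a T-type calcium channel of thalamic neurons, was at 0.16 (SE 0.10) there. For βL against CR the median was 0.27, with 0 called and 7 at an unadjusted p under 0.05, against 9.36% of all genes. Shox2 was at 0.81 (SE 0.13) in that contrast.

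**Figure D3:**
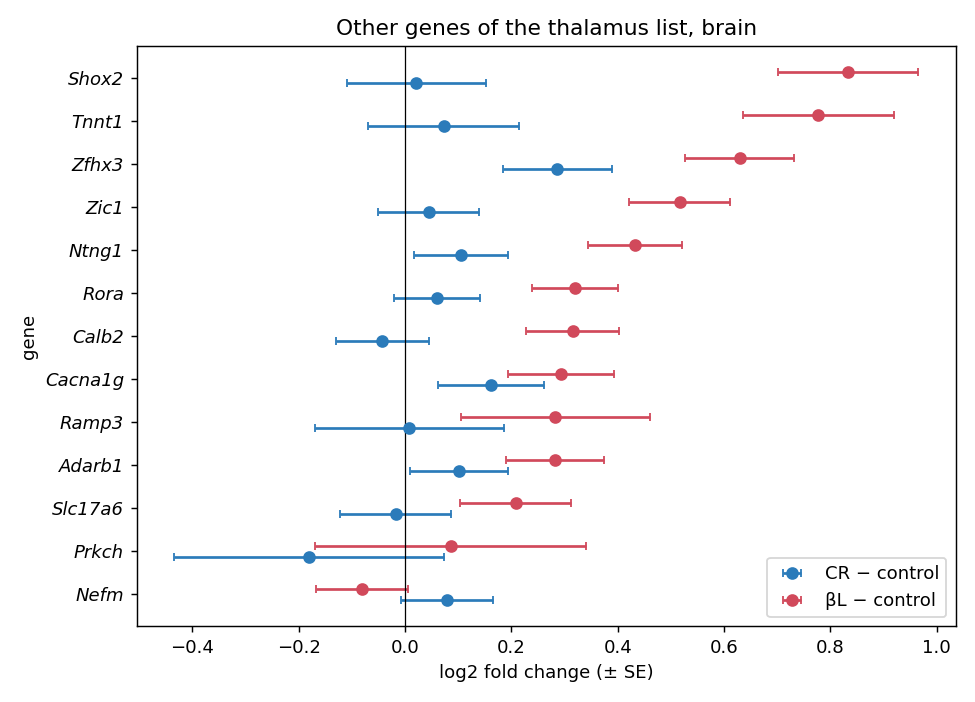
Log2 fold change (x axis) of the 13 measured genes of the thalamus list other than the members (y axis), for CR minus control and βL minus control in brain, 2 arrays per diet. Bars are standard errors. Of the βL values 12 of 13 lie above 0, led by Shox2 at 0.83. By its values Shox2 was kept as above background through the βL arrays alone, and none of the genes was called.

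On βL the lists of the other regions had medians nearer to 0. For βL against control the median was -0.07 over 16 striatal genes, -0.05 over 13 hippocampal genes and 0.05 over 16 cortical genes. None of these genes was called in any of the 3 contrasts. With an unadjusted p under 0.05 there were 2 striatal, 4 hippocampal and 1 cortical gene for βL against control. The numbers were 2, 1 and 0 for CR against control, and 5, 1 and 2 for βL against CR. In these contrasts 8.73%, 8.15% and 9.36% of all genes were at that level. The medians for CR against control were 0.04, 0.08 and -0.09. In the striatal list, Isl1, a LIM homeobox factor, was at 0.38 (SE 0.09) and Gpr6, an orphan receptor of indirect pathway neurons, at -0.45 (SE 0.18) for βL against control. Serpina9 stood at 0.72 (SE 0.10) and Isl1 at 0.23 (SE 0.09) for CR against control. Serpina9 was at -0.54 (SE 0.10) and Scn4b, a sodium channel subunit, at -0.28 (SE 0.10) for βL against CR. In the hippocampal list Spink8, a protease inhibitor gene of CA1, gave 7.49 and 7.58 on control, 6.96 and 6.99 on CR, and 6.92 and 6.75 on βL. Both control arrays lay above those of both other diets, with differences of -0.56 for CR and -0.70 for βL (SE 0.10 each). Fibcd1 was at -0.23 for CR and -0.35 for βL against control (SE 0.10 each). Pou3f1, a POU domain factor, was at -0.35 (SE 0.11) and Ociad2 at -0.20 (SE 0.09) for βL against CR. In the cortical list Nr4a2, a nuclear receptor of deep layers, was at 0.43 (SE 0.16) and Slc17a7, the vesicular glutamate transporter of cortical neurons, at 0.17 (SE 0.09) for βL against control. Against CR they were at 0.62 (SE 0.16) and 0.33 (SE 0.09). For CR against control, Rasgrf2, an upper-layer exchange factor for Ras, was at 0.41 (SE 0.19) and Slc17a7 at -0.16 (SE 0.09).

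**Figure D4:**
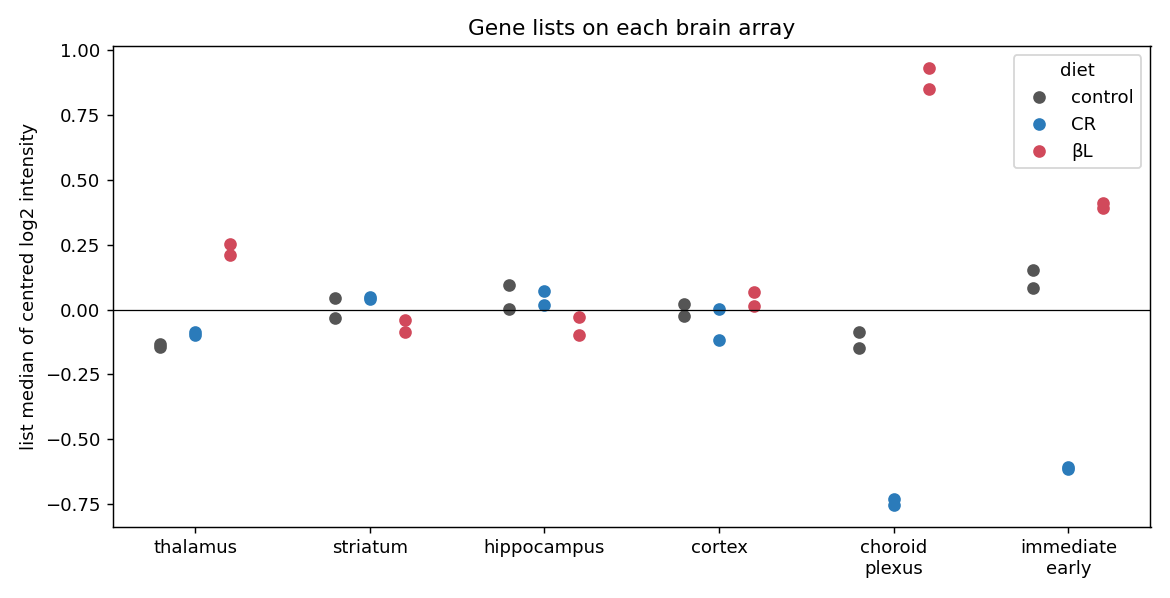
Median over each list's measured genes of the log2 intensity centred per gene (y axis) on the 6 brain arrays, coloured by diet, for 6 lists (x axis). Points are arrays; the thalamus list lies at 0.21 and 0.25 on the βL arrays and between -0.14 and -0.09 on the others, and the choroid plexus list at 0.85 and 0.93 on βL, -0.73 and -0.75 on CR.

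Genes of other brain structures differed between the same arrays, some more than the members. Choroid plexus genes, which belong to the tissue that makes cerebrospinal fluid, were called higher for 7 of 10 measured genes on βL against control and 8 of 10 against CR, and lower for 3 of 10 on CR against control. These calls depended on single arrays: for βL against control 1 gene was called without control replicate 1 and 0 without control replicate 2, βL replicate 1 or βL replicate 2, with medians of 0.97 to 1.15 for the list. For βL against CR 6 were called without either CR array, 5 without βL replicate 1 and 4 without βL replicate 2, and for CR against control 1, whichever array was left out. Without βL replicate 1 or without βL replicate 2, 8 genes were measured in place of 10. The 2 lost, by their values Cldn2 and Folr1, were kept as above background through the βL arrays alone. Their rise on βL was favoured by that selection. The summed normalized intensity of the 10 genes, in which the brightest gene Ttr weighs most, was 11989 to 13325 on control, 3909 to 4006 on CR and 25717 to 28283 on βL. Of the 11 genes of this list on the array, 0 were below background on every brain array. Ttr, the thyroid hormone carrier transthyretin, gave 13.61 and 13.45 on control, 11.78 and 11.74 on CR, and 14.71 and 14.56 on βL. For βL against control the called genes with the smallest p were Aqp1, a water channel, at 1.59 (SE 0.12), Otx2, a homeobox factor, at 1.16 (SE 0.09), Kl, which encodes klotho, at 1.26 (SE 0.11), and Cldn2, a tight junction claudin, at 1.39 (SE 0.12). Against CR they were Ttr at 2.88, Kl at 2.27, Aqp1 at 2.30 and Otx2 at 1.68. Those called lower for CR against control were Ttr at -1.78, Kl at -1.01 and Clic6, a chloride channel protein, at -0.71. On βL this list, Prkcd and Tcf7l2 were all above control. On CR the list (median -0.70) and Tcf7l2 (-0.24) were below control, while Prkcd (0.15) was slightly above it. The summed level of the 13 thalamic genes was 8577 to 8815 on control, 8974 to 9098 on CR and 10217 to 10588 on βL.

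In a hypothalamus list, 2 of 7 measured genes were called higher on βL against control, the neuropeptides Gal at 1.07 (SE 0.09) and Pmch at 0.97 (SE 0.13). Pmch was called against CR too, at 1.57 (SE 0.13). For βL against control the list's median was 0.07, with 5 genes above 0 and 2 below. Avp was the lowest, at -0.54. Without control replicate 2 or without CR replicate 1, 6 genes of this list were measured. The gene lost, by its values Avp, was kept as above background through those arrays alone. Its fall on βL was favoured by that selection. The summed level, in which the brightest gene Hap1 weighs most, was 4215 to 4338 on control, 4043 to 4115 on CR and 4579 to 4591 on βL. Hcrt, Pomc, Npvf, Magel2 and Ghrh of that list were below background on all brain arrays. Hba-a1, a hemoglobin chain of red cells, was called higher on βL against control at 0.94 (SE 0.09). Against CR it was at 1.33 (SE 0.09) and Alas2, the heme synthesis enzyme of red cells, at 1.61 (SE 0.15), both called. Without βL replicate 2 neither call against CR held, with a median of 1.34 for the list against 1.47 on all arrays. Without CR replicate 1 or CR replicate 2 only part of these calls held. The list's 2 measured genes summed to 5794 to 5853 on control, 4294 to 4607 on CR and 10689 to 11730 on βL, and Hbb-b2 was below background throughout. Of 9 immediate early genes, which report recent neuronal activity, 4 were called lower on CR against control (Npas4 at -1.34, Junb at -0.88, Arc at -0.89 and Fos at -0.82), 6 higher on βL against CR (led by Npas4 at 1.30, Egr2 at 1.41, Arc at 1.08 and Fos at 1.03), and 0 on βL against control, where 5 had an unadjusted p under 0.05, against 8.73% of all genes. Their summed level was 22506 to 23219 on control, 17200 to 18351 on CR and 27142 to 27630 on βL. Without 1 array of the contrast, no gene of the hypothalamus or red cell list was called for βL against control, and at most 1 immediate early gene for CR against control. For βL against CR, 2 immediate early genes were called without either CR array and 0 without either βL array. The part of any of these in the values of Prkcd, Tcf7l2 or the thalamic genes was not tested.

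No gene was called in lists of the cerebellum, midbrain and hindbrain, olfactory bulb, myelin, astrocytes, microglia or endothelium. For βL against control, their medians ran from 0.11 over 8 cerebellar genes to -0.44 over 8 microglial genes. The microglia list summed to 4322 to 4386 on control, 3431 to 3590 on CR and 3366 to 3532 on βL, and 6 of its 8 genes had an unadjusted p under 0.05 for βL against control, as did 2 of 8 cerebellar, 0 of 3 midbrain and hindbrain, 2 of 6 olfactory bulb, 0 of 13 myelin, 1 of 10 astrocyte and 3 of 7 endothelial genes. Of all genes, 8.73% were at that level.

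Other genes of the members' pathways were not called. For βL against control, limma called 0 genes of 10 TCF/LEF family members and partners (median -0.03), 6 Wnt and TCF/LEF target genes (0.16), 10 genes of striatal dopamine and adenosine signalling (0.00), 13 regulators of G protein signalling (0.00), 8 protein kinase C genes (0.04) and 7 NeuroD and related factors (0.10). At an unadjusted p under 0.05 there were 0, 1, 0, 0, 0 and 1 of them, against 8.73% of all genes. In the other 2 contrasts none was called either, with at most 2 genes of any of these lists at an unadjusted p under 0.05.

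The genes most like the mean of the 3 measured thalamic members across the 6 arrays, among 2261 genes with a range of at least 0.5 log2, were Mrvi1 (r = 0.99), Mgarp, Wfdc2, Cldn2 (each 0.98) and Zic1 (0.98). Cldn2 is in the choroid plexus list and Zic1 in the thalamus list. For the mean of Drd2 and Ppp1r1b they were Avp (0.99), Aif1 (0.98), Pgghg (0.97), Nrros and Rsph3a (each 0.95). For the mean of Prox1 and Wfs1 they were Shox2, Tnnt1, Sik2 and H1f5 (each 0.97) and Fign (0.96). Shox2 and Tnnt1 are both in the thalamus list. By their values, Cldn2 and Shox2 were kept as above background through the βL arrays alone. Avp was kept through control replicate 2 and CR replicate 1 alone. The likeness of these genes to the members was favoured by that selection. All these correlations describe 6 arrays that share the 3 diets.

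In muscle, where region identity has no meaning, 7 members had a probe above background on at least 2 arrays: Prkcd, Tcf7l2 and Wfs1 on 8 of 8, Drd2 on 7, Prox1 on 4, and Rgs16 and Ppp1r1b on 3. Ppp1r1b was read there from its second probe, since the probe used in brain was above background on 0 of 8 muscle arrays. None was called by limma in any of the 3 contrasts, and none had an unadjusted p under 0.05. Over all 8898 genes tested in muscle, 0% were called for CR against control, 0.0225% for βL against control and 0.0225% for βL against CR, and 5.12%, 10.4% and 9.62% had an unadjusted p under 0.05. The methods' t-test called 0 genes in each.

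Prkcd gave 8.69 and 7.46 on the muscle control arrays, 7.65, 7.97 and 7.66 on CR, and 7.58, 7.69 and 7.58 on βL. Control replicate 1 stood above all others, also before normalization, at an intensity of 579 against 302 to 345 on the rest. The difference of βL from control was -0.46 (SE 0.30, limma adjusted p = 0.635). Tcf7l2 gave 8.09 and 8.38 on control, 8.08, 8.48 and 8.09 on CR, and 7.79, 8.07 and 7.80 on βL. All 3 βL arrays lay below the others, at -0.35 from control (SE 0.19, limma adjusted p = 0.557).

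**Figure D5:**
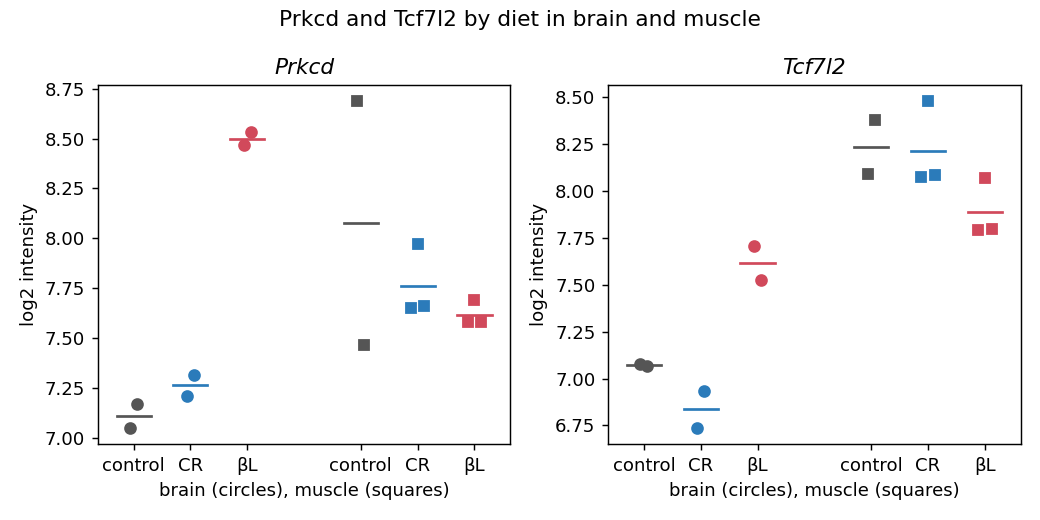
Log2 intensity (y axis) of Prkcd and Tcf7l2 by diet (x axis) on the 6 brain arrays (circles) and the 8 muscle arrays (squares), each tissue normalized alone, with means as lines. In brain the βL arrays are the highest for both genes; in muscle they lie between 7.58 and 7.69 for Prkcd and between 7.79 and 8.07 for Tcf7l2.

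With all 14 arrays normalized together, brain and muscle were compared over 10765 genes, of which 83.2% were called. Those both called and higher in brain made up 38.4% of the 10765. All 7 members were called, 5 higher and 2 lower in brain. The brightest probe of Ppp1r1b was at least 55.8-fold brighter in brain, being above background on 6 of 6 brain and 0 of 8 muscle arrays. Its difference without that bound was 6.67 on the log2 scale (limma adjusted p = 3.99e-15). For the bound, an undetected muscle array was set to the higher of its own signal and the lowest detected signal of that array. The 2 dimmer probes lay much closer in log2 intensity, with each tissue normalized alone. The second ran from 7.38 to 7.80 in brain and from 5.19 to 5.79 in muscle. For the third the ranges were 5.97 to 6.29 and 4.66 to 5.72. The bound is thus for the brightest probe alone. Rgs16 was higher in brain by 1.87 (SE 0.19, limma adjusted p = 1.43e-06), Prox1 by 1.13 (SE 0.17, adjusted p = 5.82e-05), Drd2 by 1.01 (SE 0.11, adjusted p = 1.98e-06) and Wfs1 by 0.38 (SE 0.10, adjusted p = 0.00293). In muscle Rgs16 was above background on 3, Prox1 on 4 and Drd2 on 7 of 8 arrays, so their muscle means include signals not well above background. The kinase and the Wnt factor went the other way. Prkcd was lower in brain, at -0.69 (SE 0.14, limma adjusted p = 0.000711), its brain arrays lying between 6.71 and 8.32 and its muscle arrays between 7.70 and 8.82. Tcf7l2 was lower in brain at -1.45 (SE 0.09, adjusted p = 1.02e-08), between 6.40 and 7.42 in brain and between 8.0 and 8.63 in muscle. Only for Tcf7l2 of this pair did the tissues not overlap.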

How the data were processed

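The 14 arrays were grouped by tissue and diet as the labels give them. The authors deposited intensity values before normalization from BeadStudio, and beside each a detection p-value deposited by the authors from the comparison with negative control beads. The methods give quantile normalization for the authors' second table, whose deposited intensity values are on a linear scale and were used as an alternative. Their background treatment is not given in the sources used here.

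Here limma 3.58.1 (R 4.3.3) corrected the background by normexp, the negative control distribution being inferred from detection p-values, added an offset of 16, quantile-normalized each tissue alone and took log2. The offset shrinks differences of dim probes. A probe entered where 2 or more arrays of its tissue had a detection p under 0.05, and the brightest probe stood for a gene, leaving 9956 genes in brain and 8898 in muscle. The probe annotation gave 1 symbol for 23978 of 25697 probes, several for 0 and none for 1719, with 23962 found in the GRCm38.p6 gene table. Levels of different probes were not compared. Diets were fitted together with lmFit and eBayes, with Benjamini-Hochberg adjustment over all genes and a call at an adjusted p under 0.05. For brain against muscle all 14 arrays were normalized together and the 3 diets weighted equally. The steps were tested on simulated data.

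The members and the 21 other lists were chosen with earlier results of these data known. Named in the text are all members, per contrast from each list up to 4 called genes with the smallest p (where none was called, for the 4 region lists, the 2 with the smallest p), and the 5 genes most like each region's members. Nefm, Tnnt1, Folr1, Hap1, Egr1 and genes said to be below background were named after their values were seen. Summed levels add the normalized intensities of a list's measured genes, so the brightest gene weighs most. In the choroid plexus, hypothalamus, red cell and immediate early lists these were Ttr, Hap1, Hba-a1 and Egr1. Alternatives were other background, scaling, filter, probe and model choices and leaving out each brain array. No replicate pairing is stated by any source used here.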

Additional observations from a re-analysis of the deposited data

Results flagged for a closer look

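3 differences went opposite ways in the tissues, every treated array lying above the control mean in brain and below it in muscle. For Prkcd on βL the change from control was 1.39 in brain and -0.46 in muscle, 1.85 apart on the log2 scale. For Prkcd on CR it was 0.15 in brain and -0.31 in muscle, 0.47 apart. For Tcf7l2 on βL it was 0.55 in brain and -0.35 in muscle, 0.89 apart. None of these differences between tissues was tested, since the brain side served to pick the genes. The muscle control mean of Prkcd rests on arrays at 8.69 and 7.46, and all CR and βL arrays lay between these. Groups of 2 or 3 arrays are too small to look for single arrays apart from the rest.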

How the results depend on the processing

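Against the reported 23 genes for CR against control, 33 for βL against control and 28 for βL against CR, the deposited normalized values called 36, 69 and 44, and the methods' t-test 0, 0 and 2. For βL against control 62 genes were called without background correction, 59 with an offset of 50 and 55 with all 14 arrays normalized together. Median scaling called 14 higher and 27 lower there, against 15 and 18. For CR against control 8 were called with only the 2 diets compared. The replicate block called 15 for CR against control. The shared numbers had correlations of replicate differences of 0.18, 0.03 and -0.11, so they were not taken to pair the samples. For βL against CR, fitted on the CR and βL arrays alone, 22 were called with no block and 25 with crossed replicate numbers as a block, an alternative chosen after seeing the data. Leaving out 1 brain array gave 3 to 8, 2 to 27 and 5 to 22 genes in the 3 contrasts. Without a βL array 6 and 6 were called for βL against control and without a control array 3 and 2.

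Prkcd ranged from 1.32 to 1.45 with 1 array left out for βL against control, and from 1.18 to 1.29 for βL against CR, with the calls lost as described. It was called in 12 and 14 of 16 alternatives, and its differences over all of them ran from 1.01 to 1.51 and from 0.92 to 1.35, lowest with the deposited values. For CR against control it ran from 0.089 with the deposited values to 0.21 without control replicate 2. Drd2 for βL against CR (-0.09) was -0.16 without βL replicate 2 and -0.029 without βL replicate 1, and Rgs16 there (0.23) 0.052 and 0.42. Ppp1r1b was -0.38 for βL against CR with median scaling. Rgs16, Ppp1r1b, Prox1 and Wfs1 changed sign for CR against control in some alternatives, all with differences near 0, and Wfs1 also in the other contrasts.

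For βL against control the thalamus median of 0.32 became 0.29 with the deposited values, 0.28 with no filter, 0.22 with the mean of the kept probes, 0.25 with median scaling and 0.31 to 0.34 with 1 array left out. For βL against CR (0.27) it became 0.25 without background correction, 0.24 with the deposited values, 0.25 with an offset of 50, 0.30 with all arrays normalized together, 0.23 with mean probes, 0.22 with median scaling and 0.27 to 0.37 with 1 array left out. For CR against control (0.06) it was 0.022 with mean probes, 0.11 with median scaling and 0.067 to 0.095 with 1 array left out.

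Median scaling gave striatal, hippocampal and cortical medians of -0.15, -0.10 and -0.0068 for βL against control, and -0.21, -0.20 and -0.0091 for βL against CR, while the median of all genes moved to -0.06 and -0.09. The hippocampal median was -0.046 for CR against control with no filter and -0.073 for βL against CR with the deposited values. With 1 array left out the striatal median ran from -0.019 to 0.10, -0.12 to -0.060 and -0.19 to -0.035, the hippocampal from -0.054 to 0.099 and -0.17 to 0.0094 (CR and βL against control) and -0.16 to -0.075 (βL against CR), and the cortical from -0.14 to 0.015, 0.016 to 0.086 and 0.019 to 0.19. The causes were not tested. A chip block was not run, since the headers read here name no chip. Dim probes such as those of Lef1 and Neurod6 carry only a bound.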
